A study of Mus musculus with 12 samples.

Results

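The enzymes that make, phosphorylate and consume nicotinamide adenine dinucleotide (NAD) were followed as 10 genes, Nampt, Nmnat1, Nmrk1, Naprt, Nadk, Nadsyn1, Cd38, Bst1, Nnt and Aox1, in the RNA of mouse bone marrow-derived macrophages (BMDMs). Their rows were taken by symbol from count tables of 35275 genes, and all 10 were found. BMDMs are macrophages grown from marrow cells in culture, here in the presence of M-CSF, IL-4 and IL-10, a mixture that drives them toward an alternatively activated (M2) state. All cultures were wildtype and carried their treatment for 6 days, and 3 groups of 4 libraries were sequenced: DMSO, the solvent control, olaparib, an inhibitor of poly(ADP-ribose) polymerases (PARPs), and MNA, methyl-nicotinamide. The study's legend names 4 donor mice, and its methods describe the marrow donors as mice of either sex aged 6 to 10 weeks. The sources used here do not say which libraries share a mouse or which of the study's strains gave these cultures. The adjusted p-values therefore measure the spread between these libraries.

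NAD is rebuilt from nicotinamide, nicotinic acid or nicotinamide riboside, or made from tryptophan, and these routes join at the nicotinamide and nicotinic acid mononucleotides. PARPs and the ectoenzymes CD38 and BST1 split NAD and release nicotinamide, which can be salvaged or methylated to MNA. NAD kinase and the mitochondrial transhydrogenase NNT tie the NAD pool to NADPH, which macrophages use for the oxidative burst and for antioxidant defence. Aldehyde oxidase, encoded by Aox1, oxidises methylated nicotinamide to pyridones.

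Libraries held 21146291 to 31446849 counts. Macrophage markers were present throughout: each of the 8 was above 3 counts in every DMSO and olaparib library, and 7 were in every MNA library. The library labelled MNA replicate 2 stood apart from the other MNA libraries. Its first principal component score was -36.0, within the DMSO range of -43.7 to -33.6, whereas the other MNA libraries scored 59.9 to 63.4. The summed level of 5 alternative activation markers was 32290 CPM (read counts scaled to a common library size) in that library, 1494 to 2091 CPM in the other MNA libraries and 33485 to 53749 CPM in DMSO. Values without it are therefore given beside the MNA results that it bears on.

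The promoters of Nampt and Nadk are shown because these genes had the highest RNA levels per exon length of the 10. The sequences are the 250 bases before a RefSeq start site (GRCm38.p6, plus strand), 12:32820085-32820334 for Nampt and 4:155562131-155562380 for Nadk, 5′ to 3′, and capitals mark the GC box GGGCGG or its complement CCGCCC.
Nampt: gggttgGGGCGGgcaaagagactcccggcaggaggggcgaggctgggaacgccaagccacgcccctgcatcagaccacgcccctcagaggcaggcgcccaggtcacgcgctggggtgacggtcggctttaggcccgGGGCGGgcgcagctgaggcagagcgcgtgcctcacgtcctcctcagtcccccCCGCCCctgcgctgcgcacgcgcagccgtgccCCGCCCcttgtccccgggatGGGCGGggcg
Nadk: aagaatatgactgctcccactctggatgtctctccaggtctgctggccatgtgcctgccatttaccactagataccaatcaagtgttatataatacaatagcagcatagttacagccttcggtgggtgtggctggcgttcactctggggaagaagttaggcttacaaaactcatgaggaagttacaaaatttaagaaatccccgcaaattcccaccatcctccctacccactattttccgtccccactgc
The Nampt window was 75.6% G and C and held 5 GC boxes, whereas this Nadk window was 46.8% G and C and held none. Nadk has a second RefSeq start, whose window held a GC box and the E-box CACGTG. RefSeq windows were present for 7 of the 10 genes, with 9 windows in all, and 6 of these held a GC box, against 32.7% of 32851 windows of the same length. The windows of Nmnat1 overlap and hold the same GC box, which is thus counted for each. The E-box occurred in 1 of the 9 against 6.02% of all windows. On either strand, none of the 9 held TGACNNNGC (10.2% of all windows), TTCNNNGAA (7.02%), TATAAA (12.4%) or the core of the interferon-stimulated element (2.98%). These are matches of letters only.

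Levels between genes were compared per length, as CPM per kilobase of exon (RPKM). In DMSO, Nadk was highest with 49.4 ± 4.04 RPKM (SD, n = 4), followed by Nampt with 30.3 ± 3.34, and the libraries of these 2 genes did not overlap. Nnt (3.61 ± 0.193 RPKM), Nmnat1 (2.96 ± 0.316) and Nadsyn1 (2.86 ± 0.322) came next. The libraries of Nnt and Nmnat1 overlapped at their edges, Nmnat1 and Nadsyn1 did not differ beyond their spread, nor did Naprt (1.35 ± 0.271 RPKM) and Nmrk1 (1.32 ± 0.173). The ectoenzymes were low, at 0.358 ± 0.201 RPKM for Bst1 and 0.138 ± 0.0523 RPKM for Cd38, with overlapping libraries. Aox1 was last at 0.0217 ± 0.00989 RPKM. Olaparib brought Bst1 to 1.25 ± 0.372 RPKM, level with Naprt (1.38 ± 0.205) and Nmrk1 (1.49 ± 0.156), and with MNA Bst1 lay at 0.161 ± 0.0849 RPKM, beside Cd38 (0.149 ± 0.0803). Without MNA replicate 2, Bst1 was 0.121 ± 0.0350 RPKM and Cd38 0.180 ± 0.0619 RPKM, with overlapping libraries.

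**Figure D1:**
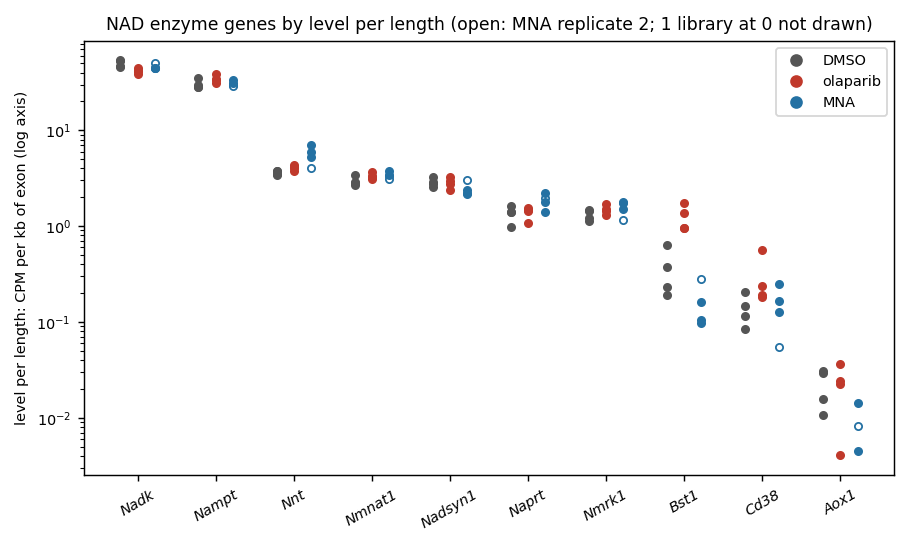
Level per length (CPM per kilobase of exon, log axis) of the 10 genes, ordered by their DMSO mean, with 1 point per library, grey for DMSO, red for olaparib, blue for MNA and an open circle for MNA replicate 2. Nadk and Nampt lie above the other genes in all 3 groups, Bst1 is the gene whose groups separate most, and 1 Aox1 library at 0 is not drawn.

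Of the 10 genes, 9 passed the filter on low counts and were tested among 12849 genes. Olaparib raised Bst1 and lowered Nadk, so that 2 of 9 were called at an adjusted p under 0.05, against 27% of all genes tested (14.3% up, 12.8% down). MNA raised Nnt, which was 1 of 9 called, against 28.6% of all genes (16.3% up, 12.3% down). Between olaparib and MNA, 2 of 9 were called, Bst1 higher and Nnt lower with olaparib, against 21.8% of all genes. The shares among the NAD genes were thus near or below those of all genes. The median log2 fold change of the 9 was 0.18 with olaparib and 0.08 with MNA, and that of all genes was 0.00378 and 0.000196. The same DMSO libraries served as control for both treatments. Without MNA replicate 2 the count for MNA was 3 of 9, 1 up and 2 down, against 54.1% of all genes, and for olaparib it was 2 of 9, 1 in each direction, against 43.7% (22.5% up, 21.2% down). Between olaparib and MNA it was again 2 of 9, against 42.3%. In those libraries the groups did not overlap for 5 of the 9 genes between MNA and DMSO, against 54.2% of all genes, and for 3 between olaparib and MNA, against 46.2%.

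**Figure D2:**
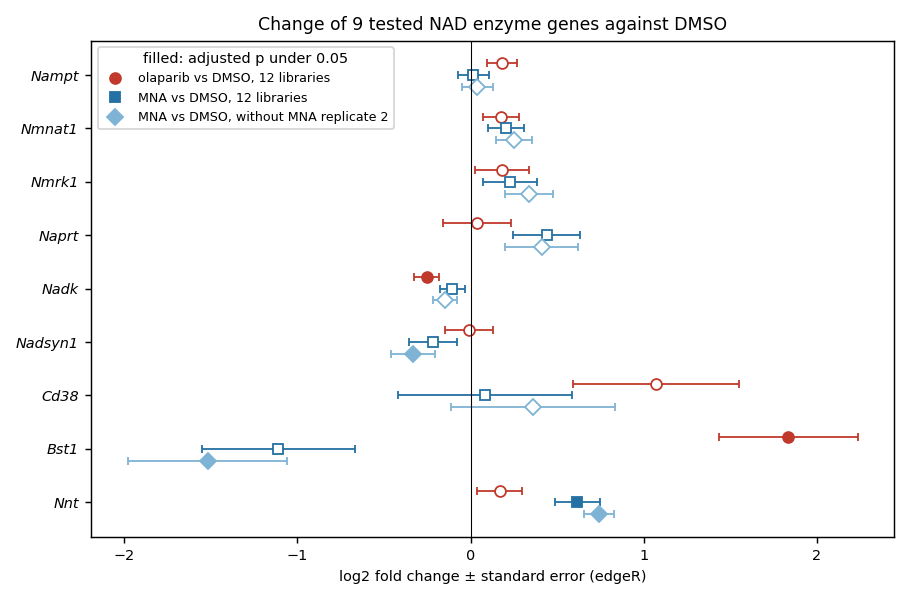
Log2 fold change against DMSO of the 9 tested genes, with bars of 1 standard error from edgeR, for olaparib (red), MNA with all 12 libraries (dark blue) and MNA without replicate 2 (light blue), with filled symbols for an adjusted p under 0.05. Bst1 lies at 1.83 with olaparib and at -1.11 with MNA, and Nnt is the gene farthest to the right with MNA.

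The salvage of nicotinamide begins with Nampt, the rate-limiting enzyme that forms nicotinamide mononucleotide (GRCm38, chr12, 32819545 to 32853349, plus strand). Nampt RNA was 142, 149, 178 and 144 CPM in DMSO replicates 1 to 4, 158, 169, 197 and 172 CPM with olaparib and 149.9, 147, 168 and 156 CPM with MNA. In each numbered pair the olaparib library was the higher, while the groups overlapped, and the third library of every group was its highest. The log2 fold change with olaparib was 0.18 (SE 0.0878, edgeR adjusted p = 0.139). Deviations of same-numbered olaparib and DMSO libraries correlated across genes (r of 0.172 to 0.408), though no source pairs them. With the replicate number as a block the Nampt value was 0.18 and passed the test (adjusted p = 0.0352). It also passed without DMSO replicate 3, and in the fit with the block and without MNA replicate 2. In the other 18 of 21 alternatives it did not pass. With MNA the log2 fold change was 0.02 (adjusted p = 0.900), and 0.04 (adjusted p = 0.743) when replicate 2 was left out.

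Nmnat1, the nuclear enzyme that joins the mononucleotides to an adenylyl group (chr4, 149467572 to 149485202, minus strand), ranged from 8.14 to 10.4 CPM in DMSO, 9.47 to 11.2 CPM with olaparib and 9.38 to 11.4 CPM with MNA. Its groups overlapped, and the log2 fold changes of 0.18 with olaparib (adjusted p = 0.217) and 0.21 with MNA (adjusted p = 0.139) did not pass, nor did that of 0.25 with MNA when replicate 2 was left out (adjusted p = 0.0569). Nmrk1, the kinase that brings nicotinamide riboside into the pathway (chr19, 18631950 to 18652428, plus strand), ranged from 4.19 to 5.49 CPM in DMSO and 4.84 to 6.21 CPM with olaparib. With MNA its 4 libraries held 6.37, 4.30, 5.52 and 6.51 CPM, of which only replicate 2 fell within the DMSO range. The log2 fold change with MNA was 0.23 (adjusted p = 0.276) with all libraries and 0.34 (adjusted p = 0.0562) without replicate 2.

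The nicotinic acid branch is served by Naprt, which starts from nicotinic acid, and Nadsyn1, which turns the deamidated dinucleotide into NAD. Naprt (chr15, 75890956 to 75894481, minus strand) was 3.80, 3.30, 3.28 and 2.29 CPM in DMSO, 3.46, 3.61, 3.37 and 2.54 CPM with olaparib and 3.25, 4.55, 5.17 and 4.14 CPM with MNA. In MNA, 3 libraries, replicate 2 among them, were above every DMSO library, and the first was not. The log2 fold change with MNA was 0.44 (SE 0.195, adjusted p = 0.102), or 0.41 without replicate 2 (adjusted p = 0.114), and with olaparib it was 0.04 (adjusted p = 0.898). Naprt shares 11.8% of its exonic bases with Eef1d on the same strand, so reads from that stretch overlap both genes. How such reads were counted is not given in the sources used here.

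Nadsyn1 (chr7, 143795584 to 143822849, minus strand) was 10.9, 8.98, 9.55 and 8.38 CPM in DMSO and 9.86, 7.78, 10.7 and 9.09 CPM with olaparib, a log2 fold change of -0.01 (adjusted p = 0.960). With MNA it was 7.94, 10.03, 7.33 and 7.20 CPM, where replicates 1, 3 and 4 lay below every DMSO library and replicate 2 lay among them. The log2 fold change with MNA was -0.21 (adjusted p = 0.245), and without replicate 2 Nadsyn1 fell by 0.33 on the log2 scale (adjusted p = 0.0381).

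NAD kinase, the cytosolic enzyme that phosphorylates NAD to NADP, was lower after olaparib. Nadk (chr4, 155562378 to 155591001, plus strand) was 200.5, 170.0, 196 and 175 CPM in DMSO and 166, 157, 154 and 145 CPM with olaparib. Every olaparib library was below every DMSO library, as was the case in one direction or the other for 41% of all genes tested. Nadk fell by 0.25 on the log2 scale (SE 0.0712, adjusted p = 0.0219). Over the alternatives it fell by 0.22 to 0.29, but the fall no longer passed without DMSO replicate 1 or 3 or without olaparib replicate 2, 3 or 4 (adjusted p up to 0.0683). It passed in 16 of 21 alternatives, among them the edgeR fit without MNA replicate 2 (adjusted p = 0.00552). With MNA, Nadk was 167, 187, 167 and 168 CPM, with replicate 2 the highest, and the log2 fold change was -0.11 (adjusted p = 0.262), or -0.15 without replicate 2 (adjusted p = 0.0834).

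Of the NAD-splitting ectoenzymes, Bst1 passed the test with olaparib and Cd38 did not. Bst1 (chr5, 43818885 to 43843986, plus strand) and Cd38 (chr5, 43868553 to 43912375, plus strand) are neighbours, 24566 bases apart, and both encode cyclases that cut NAD at the cell surface. The longest run of bases shared by their reading frames, of 936 and 915 bases, was 12, which is shown because it bears on whether reads of one could be counted for the other.
Cd38 and Bst1: catcttcctggg
Bst1 shares 2.95% of its exonic bases with Fbxl5 on the opposite strand.

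Bst1 was 2.11, 1.24, 0.637 and 0.762 CPM in DMSO (45, 36, 19 and 24 counts), 4.59, 3.14, 3.20 and 5.71 CPM with olaparib (130, 80, 76 and 164 counts) and 0.535, 0.931, 0.347 and 0.322 CPM with MNA (13, 26, 9 and 8 counts). All olaparib libraries were above all others, and all MNA libraries but replicate 2 were below all DMSO libraries. Olaparib raised Bst1 3.57-fold, by 1.83 on the log2 scale (SE 0.401, adjusted p = 0.00705). Against MNA it was 7.69-fold higher with olaparib (log2 fold change 2.94, SE 0.433, adjusted p = 0.000732), where the groups did not overlap, as for 21.2% of all genes. These 2 calls held under all 21 alternatives, with adjusted p of 0.000116 to 0.0268 against DMSO. Without MNA replicate 2, Bst1 was 10.3-fold higher with olaparib than with MNA (log2 fold change 3.37, adjusted p = 3.31e-05). With MNA the log2 fold change was -1.11 (SE 0.442, adjusted p = 0.0739), and without replicate 2 Bst1 fell by 1.52 on the log2 scale (SE 0.460, adjusted p = 0.0127).

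Cd38 was 0.328, 0.447, 0.804 and 0.571 CPM in DMSO, 0.742, 0.707, 0.925 and 2.19 CPM with olaparib and 0.494, 0.215, 0.965 and 0.643 CPM with MNA. These levels rest on 6 to 63 counts, and the groups overlapped, with olaparib replicate 4 far above the other 11 libraries. The log2 fold change with olaparib was 1.07 (SE 0.480, adjusted p = 0.114), and without olaparib replicate 4 it was 0.53 (adjusted p = 0.414). Without MNA replicate 2 it was 1.06 (adjusted p = 0.0535). In a fit with the replicate block and without MNA replicate 2 the call was gained (adjusted p = 0.0286). With MNA it was 0.08 (adjusted p = 0.910), and 0.36 without replicate 2 (adjusted p = 0.545).

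Both genes are also expressed by other marrow cells, and the markers of 9 cell types were read beside them. Those that shared the olaparib rise of Bst1, above both other groups and without overlap, were the macrophage, eosinophil, and T and NK cell lists. The 8 macrophage markers summed to 8726 to 10495 CPM with olaparib, 4190.5 to 5304 CPM in DMSO and 3888 to 7627 CPM with MNA. In MNA replicates 1, 3 and 4 this sum was 7627, 6381 and 5786 CPM, above every DMSO library, whereas Bst1 was below every DMSO library there. The 5 eosinophil markers summed to 0.389 to 1.08 CPM with olaparib, 0.0635 to 0.241 CPM in DMSO and 0.116 to 0.282 CPM with MNA. In the olaparib libraries Ear6 gave most of these counts, 11 to 26, and Epx, Prg2 and Prg3 were at 0 counts in every olaparib library. The 6 T and NK cell markers summed to 11.1 to 18.8 CPM with olaparib, 2.48 to 3.95 CPM in DMSO and 2.57 to 5.10 CPM with MNA, and Klrb1c alone gave 10.6 to 16.0 CPM of the olaparib sums.

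The other lists overlapped between olaparib and at least 1 other group. The 9 neutrophil markers summed to 2.93 to 3.89 CPM with olaparib, above DMSO replicates 2 to 4 at 1.34 to 1.81 CPM and below DMSO replicate 1 at 10.6 CPM, and to 1.33 to 68.3 CPM with MNA, where replicate 4 was the highest. S100a8 had 68 to 86 counts and Ltf 4 to 9 counts in the olaparib libraries, and the remaining 7 markers had at most 2. The sum of 8 B cell markers was 1.41 to 2.996 CPM with olaparib, 0.563 to 1.88 CPM in DMSO and 1.25 to 7.26 CPM with MNA, and that of 8 stromal markers was 1.31 to 4.39, 0.905 to 2.06 and 1.25 to 3.34 CPM. In the same order of groups, 6 dendritic cell markers summed to 18.0 to 22.9, 17.5 to 20.9 and 18.1 to 26.6 CPM, 8 basophil and mast cell markers to 6.10 to 9.94, 5.06 to 8.09 and 5.27 to 8.18 CPM, and 5 erythroid markers to 0.105 to 0.337, 0.0952 to 3.09 and 0 to 50.4 CPM. Cd3e and Cd8a had 26 and 28 counts in olaparib replicate 4, the library in which Cd38 and Bst1 were highest, and at most 8 in the other olaparib libraries. The part of such cells in the Bst1 and Cd38 values was not tested, and more cells of a type cannot be told apart from more RNA per cell in bulk RNA.

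Nnt encodes the inner mitochondrial membrane protein that makes NADPH from NADH, and it was the gene that rose with MNA (chr13, 119335448 to 119408997, minus strand). It was 24.8, 23.8, 26.7 and 26.4 CPM in DMSO, 30.2, 26.4, 29.0 and 28.6 CPM with olaparib and 49.2, 28.3, 41.3 and 37.2 CPM with MNA. All 4 MNA libraries were above all DMSO libraries, as were the groups apart for 12.4% of all genes, and replicate 2 was the lowest of them. MNA raised Nnt 1.53-fold, by 0.62 on the log2 scale (SE 0.131, adjusted p = 0.0144), and by 0.74 without replicate 2 (SE 0.0877, adjusted p = 8.92e-06). The call was lost without MNA replicate 3 and in a fit of the 2 groups alone (adjusted p up to 0.0640). With olaparib the log2 fold change was 0.17 (adjusted p = 0.362), and olaparib was below MNA by a log2 fold change of -0.45 (SE 0.131, adjusted p = 0.0294). That difference is the direct test between the treatments, and it passed in 15 of 21 alternatives. Without MNA replicate 2 the difference was -0.58 (SE 0.0875, adjusted p = 0.000141).

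C57BL/6J mice carry a deletion within Nnt that many other strains lack, and a count per gene does not show which exons were read. A second gene model named Nnt covers 47.4% of its exonic bases on the same strand. Its ID has no row among the gene IDs used here, and how reads shared by both models were counted is not given in the sources used here.

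Aox1 (chr1, 58029931 to 58106413, plus strand) was below the filter and was not tested. It had 2, 4, 8 and 8 counts in DMSO, 1, 5, 5 and 9 counts with olaparib and 3, 2, 1 and 0 counts with MNA. The MNA libraries were at or under 3 counts, and the groups overlapped. Of its paralogs, Aox2 reached at most 15 counts in any library, Aox3 4 and Aox4 5, and none was tested. The longest run of bases that the Aox1 reading frame shares with a paralog, 28 bases with Aox4, is shown because it is shorter than the 31-base words used to look for shared sequence.
Aox1 and Aox4: ttgccaagtgtcacggcacccagtgtgg

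**Figure D3:**
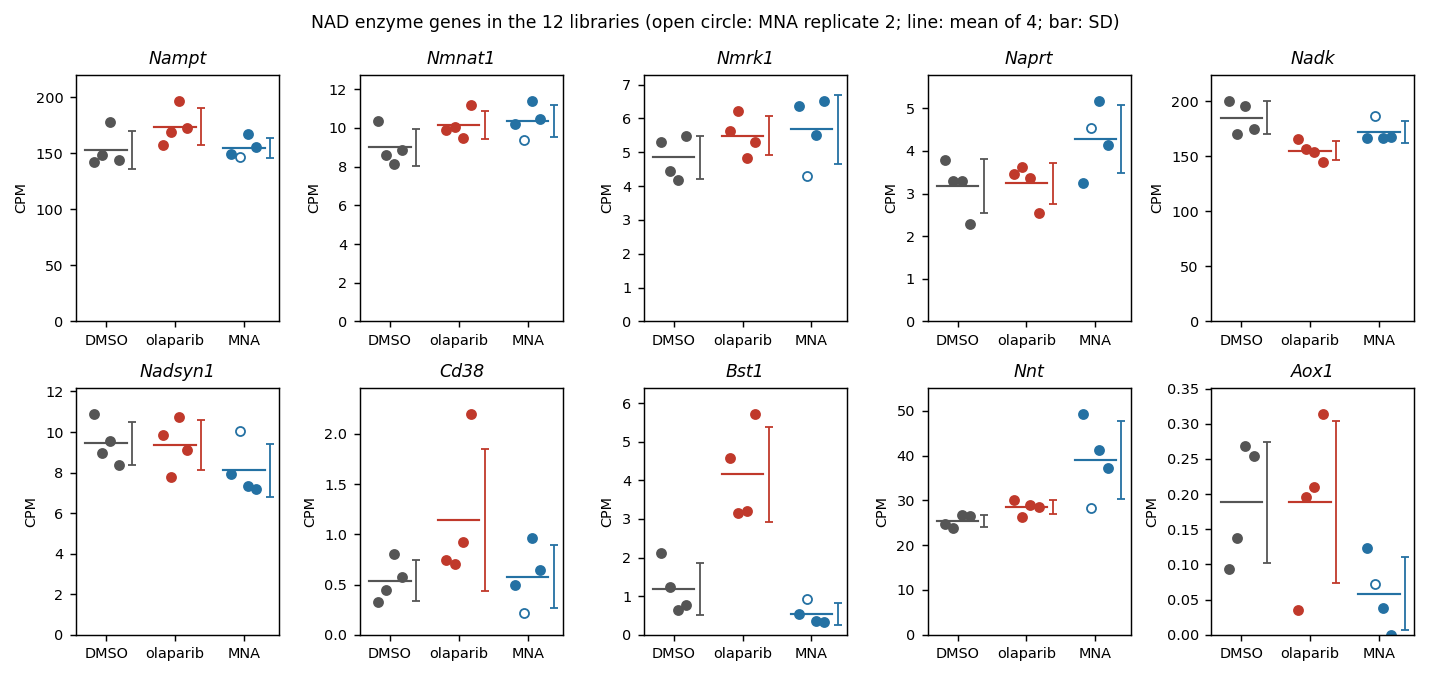
CPM of each of the 10 genes in the 12 libraries, 1 point per library in replicate order within each group, with a line at the mean of 4 and a bar for the SD. The open circle is MNA replicate 2, which lies closest to DMSO of the MNA libraries for Nnt, Bst1 and Nmrk1. Each vertical axis starts at 0.

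The remaining genes of NAD and NADPH metabolism were taken as 6 lists of 44 genes, of which 43 were found and 26 tested. With olaparib 9 rose and 5 fell, 14 of 26 against 27% of all genes, and with MNA 6 rose and 3 fell, 9 of 26 against 28.6%. Without MNA replicate 2, MNA had 8 up and 9 down against 54.1% of all genes. The median log2 fold change of the 26 was 0.10 with olaparib and -0.09 with MNA.

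Synthesis from tryptophan had 4 tested genes of 9, and both treatments raised 2 and lowered 1. The shares called over all genes were 27% with olaparib and 28.6% with MNA. Kynu, kynureninase, was 0.672 ± 0.283 CPM in DMSO, 6.89 ± 3.14 CPM with olaparib (log2 fold change 3.36, SE 0.640, adjusted p = 0.00367) and 2.66 ± 1.62 CPM with MNA (log2 fold change 1.98, adjusted p = 0.0385). MNA replicate 2 held 0.251 CPM of Kynu, below every other library, and the other MNA libraries held 3.16 to 3.66 CPM, a log2 fold change of 2.37 without replicate 2 (adjusted p = 0.000170). Haao, the dioxygenase that follows it, was 0.440 ± 0.167 CPM in DMSO, 2.91 ± 0.376 CPM with olaparib (log2 fold change 2.75, adjusted p = 0.00206) and 2.05 ± 1.23 CPM with MNA (log2 fold change 2.24, adjusted p = 0.0142, and 2.57 without replicate 2, adjusted p = 9.4e-06). Tdo2, which opens the tryptophan ring, was 0.898 ± 0.214 CPM in DMSO and fell by 1.73 on the log2 scale with olaparib (adjusted p = 0.0189) and by 1.64 with MNA (adjusted p = 0.0267). MNA replicate 2 held 0.645 CPM of Tdo2 and the other MNA libraries 0.154 to 0.165 CPM, and when replicate 2 was left out Tdo2 fell by 2.46 on the log2 scale (adjusted p = 0.000203). These changes rest on few counts. Tdo2 had 4 counts in each MNA library but replicate 2 and 5 to 9 with olaparib, and Haao had 9 to 14 in DMSO. Qprt, whose product carries this route on to NAD, was at or under 3 counts in all 12 libraries.

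Among the other salvage, phosphorylation and repair genes, 0 of 5 tested passed with olaparib in edgeR, against 27% of all genes. Of the 5, 1 had an unadjusted p under 0.05, and DESeq2 called 0. With MNA 1 passed in edgeR, against 28.6% of all genes. This was Nt5e, the ectonucleotidase CD73, at 0.0924 ± 0.0763 CPM in DMSO and 0.427 ± 0.214 CPM with MNA (log2 fold change 2.07, adjusted p = 0.0323), which rests on at most 17 counts. When replicate 2 was left out, 4 of the 5 passed with MNA, 2 up and 2 down, against 54.1% of all genes. These were Nt5e (log2 fold change 2.32, adjusted p = 0.00456), Naxe, an epimerase that repairs hydrated NADH and NADPH (0.38, adjusted p = 0.00315), Naxd, the dehydratase that acts with it (-0.25, adjusted p = 0.00669), and Nmnat3, the mitochondrial relative of Nmnat1 (-0.32, adjusted p = 0.0181). Of 3 tested genes that cleave NAD or related nucleotides, olaparib raised Nudt12, an NADH-cleaving hydrolase, by 0.56 on the log2 scale (3.08 ± 0.721 CPM in DMSO and 4.56 ± 0.500 CPM with olaparib, adjusted p = 0.0376). MNA lowered Enpp1, a nucleotide pyrophosphatase of the cell surface, which was 9.34 ± 2.27 CPM in DMSO and 2.89 ± 2.68 CPM with MNA (a change of -1.68 on the log2 scale, adjusted p = 0.0215), and it was 1.55 ± 0.110 CPM without replicate 2, a log2 fold change of -2.60 (adjusted p = 2.83e-07). Nnmt, the enzyme that methylates nicotinamide to MNA, and Nmrk2 had 0 counts in all 12 libraries, which allows up to 0.0954 to 0.142 CPM per library at a limit of 3 counts, for counting error only. Enpp3, Slc22a13, Slc5a8 and Me3 were at or under 3 counts throughout. The mitochondrial NAD carrier Slc25a51, the 1 tested transport gene of 4, was 136 ± 9.34 CPM in DMSO and fell by 0.26 on the log2 scale with olaparib (adjusted p = 0.0210). With MNA its log2 fold change was -0.17 (adjusted p = 0.0890), and it passed without replicate 2 (-0.21, adjusted p = 0.0183).

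The other sources of NADPH had 7 tested genes, of which 4 rose and 1 fell with olaparib and 3 rose with MNA. Over all genes, 27% were called with olaparib and 28.6% with MNA. The fit without MNA replicate 2 called 5 up and 1 down with olaparib, Me1 being added, against 43.7% of all genes. With MNA that fit called 4 up and 1 down, Idh1 and Me1 being added, against 54.1% of all genes. The pentose phosphate enzymes were raised by both treatments. G6pdx went from 173 ± 12.7 CPM in DMSO to 319 ± 13.6 CPM with olaparib (log2 fold change 0.88, adjusted p = 0.00148) and 277 ± 62.5 CPM with MNA (0.68, adjusted p = 0.0142). Pgd went from 199.7 ± 18.9 CPM to 427 ± 9.26 CPM with olaparib (1.10, adjusted p = 0.00332) and 404 ± 130 CPM with MNA (1.02, adjusted p = 0.0142).

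MNA replicate 2 held the lowest G6pdx and Pgd of the MNA libraries, 184 and 209 CPM, and without it the log2 fold changes with MNA were 0.83 (adjusted p = 1.7e-07) and 1.23 (adjusted p = 1.07e-08). The isocitrate dehydrogenases were also higher with olaparib, with log2 fold changes of 0.69 for cytosolic Idh1 (adjusted p = 0.00226) and 0.17 for mitochondrial Idh2 (adjusted p = 0.0292), and Idh2 rose with MNA (0.18, adjusted p = 0.0268, and 0.20 without replicate 2, adjusted p = 0.00491). Idh1 had a log2 fold change of 0.31 with MNA (adjusted p = 0.0640) and passed without replicate 2 (0.43, adjusted p = 0.000518). Aldh1l2, a mitochondrial folate enzyme, fell by 1.80 with olaparib (adjusted p = 0.00423). Me1, malic enzyme, was 9.86 ± 2.76 CPM in DMSO, 14.5 ± 1.11 CPM with olaparib and 4.68 ± 3.60 CPM with MNA, a difference between the treatments of 1.63 on the log2 scale (adjusted p = 0.0105). MNA replicate 2 held 10.1 CPM of Me1 and the other MNA libraries 2.61 to 3.17 CPM. Leaving it out gave a difference of 2.33 (adjusted p = 6.22e-07), a fall by 1.78 with MNA (adjusted p = 3.58e-06, from -1.07 and adjusted p = 0.0502 with all libraries) and a rise by 0.55 with olaparib (adjusted p = 0.0100, from 0.269).

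The relatives of Aox1 and the genes of its molybdenum cofactor had 6 tested genes, of which olaparib raised 2 and lowered 2 and MNA lowered 1. Among all genes tested, 27% were called with olaparib and 28.6% with MNA. The fit without MNA replicate 2 called 2 up and 3 down with olaparib, against 43.7% of all genes, adding Mocs3 (-0.39, adjusted p = 0.0302). With MNA that fit called 3 down, against 54.1% of all genes, adding Mocs2 (-0.40, adjusted p = 0.00199) and Gphn (-0.28, adjusted p = 0.0145). Mocs2 and Mocs3 take part in making the cofactor. Xdh, xanthine dehydrogenase, was 524 ± 20.0 CPM in DMSO and 403 ± 6.54 CPM with olaparib, a fall by 0.38 on the log2 scale (adjusted p = 0.00201). Mocs1, which makes the first intermediate of the cofactor, rose with olaparib (log2 fold change 0.30, adjusted p = 0.0268) and fell with MNA (-0.40, adjusted p = 0.0162, and -0.48 without replicate 2, adjusted p = 0.000138), and the difference between the treatments was 0.70 (adjusted p = 0.000314). Mocos, the cofactor sulfurase, rose with olaparib (0.25, adjusted p = 0.0269), and Gphn, gephyrin, fell (-0.29, adjusted p = 0.0274).

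**Figure D4:**
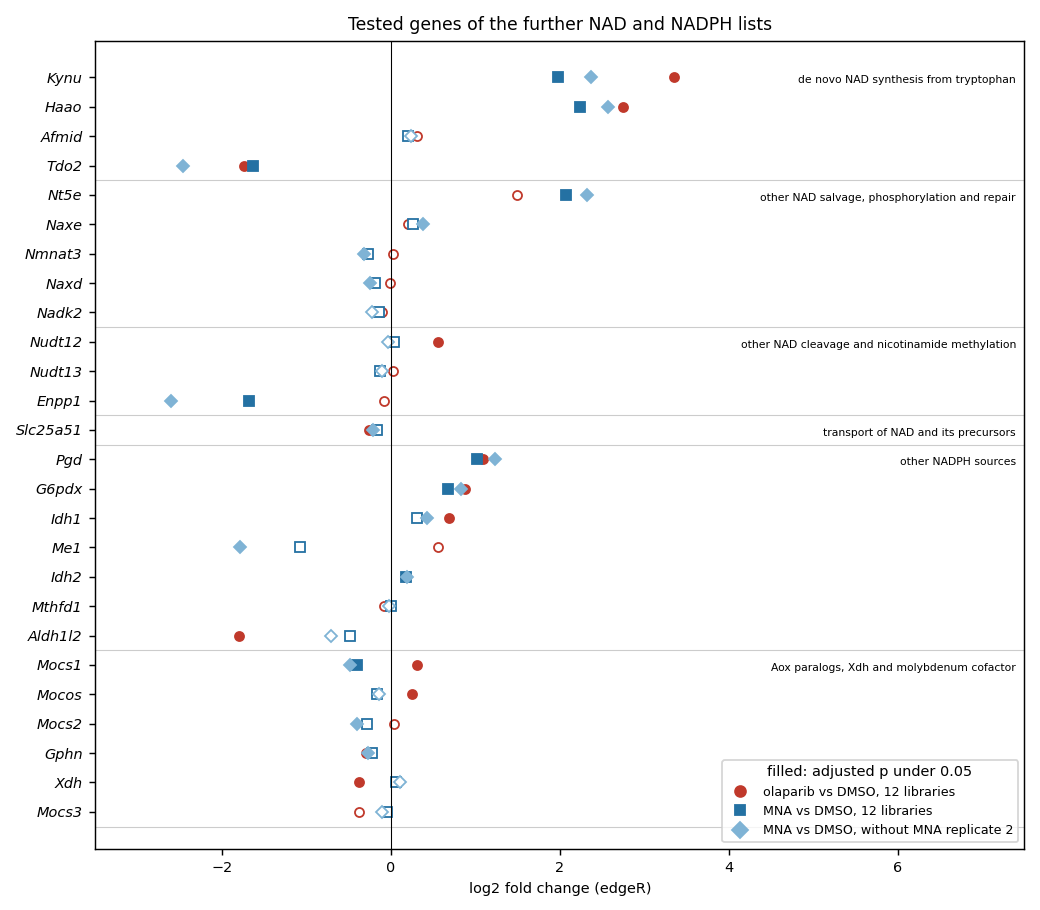
Log2 fold change against DMSO of the 26 tested genes of the 6 lists, for olaparib (red circles), MNA with all 12 libraries (dark blue squares) and MNA without replicate 2 (light blue diamonds), with filled symbols for an adjusted p under 0.05. Kynu and Haao lie farthest to the right with olaparib, and Enpp1 and Me1 lie to the left with MNA, farther without replicate 2.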

How the data were processed

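The values deposited are unnormalised read counts for each Ensembl gene, 1 table per library, which the authors made from stranded mRNA libraries with STAR 2.5.2b on GRCm38.p5. The strand column used is not given in the sources used here. Names, positions and exon lengths came from GENCODE vM21, which held 34490 of 35275 IDs. All 12 libraries entered 1 fit by group in edgeR 4.0.16 (R 4.3.3, quasi-likelihood F test, TMM, filterByExpr with a minimum count of 10 and total of 15), with Benjamini-Hochberg adjustment over 12849 genes and a threshold of 0.05. Standard errors came from the F value, and CPM used TMM-scaled totals of the tested genes. All 10 genes are named, and of the 6 lists every gene called with all 12 libraries, every gene added against DMSO without MNA replicate 2 and every gene at or under 3 counts throughout. Genes and lists were chosen with earlier results of these data known. Alternatives were DESeq2 1.42.0, 3 normalizations, 2 filters, the replicate block, 2 groups alone and each library left out. Deviations of same-numbered olaparib and DMSO libraries correlated across genes with r of 0.227, 0.172, 0.225 and 0.408. Those of MNA and DMSO gave 0.242, 0.114, -0.00938 and 0.277. Deviations were from the group mean and cancel over each group, so a positive r goes with a lower mean agreement for unlike numbers. Single pairs of unlike number were not compared, and these values do not show that a number marks a shared mouse. On simulated counts for 12849 genes with 200 changed 4-fold between olaparib and DMSO, 198 of the changed genes passed in edgeR, along with 9 that had no change. DESeq2 passed 198 and 19. The simulation gave every gene the same dispersion and held no outlying library, so it does not bear on changes smaller than 4-fold. Promoters came from RefSeq, read with Python 3.11.15.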

Additional observations from a re-analysis of the deposited data

Results flagged for a closer look

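Of 29 groups of 4 libraries, 2 held a library whose gap to its nearest neighbour was large for the range of the group, and chance gives about 1 in 20. Nadk in MNA replicate 2 was 187 CPM, with the next library at 168 CPM. Cd38 in olaparib replicate 4 was 2.19 CPM, with the next library at 0.925 CPM. The cause of neither was tested.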

How the results depend on the processing

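With each library left out in turn, the NAD genes called with olaparib against DMSO were 1 to 2 up and 0 to 1 down, with MNA 0 to 1 up and 0 to 2 down, and between olaparib and MNA 1 up and 0 to 1 down. Over all genes the same fits called 1231 to 2935 up and 921 to 2759 down with olaparib, 408 to 3543 up and 55 to 3499 down with MNA, and 987 to 2805 up and 916 to 2698 down between the treatments, the highest counts being those without MNA replicate 2. In fits of 2 groups alone, olaparib against DMSO called 2886 genes up and 2834 down, olaparib against MNA called 847 down with 0 of the NAD genes down, and MNA against DMSO called 0 up and 0 down with edgeR, where 4728 of 12379 genes had an unadjusted p under 0.05 and DESeq2 called 3056. DESeq2 on the 12 libraries added Bst1 as 1 NAD gene down with MNA. The replicate block gave 2 NAD genes up with olaparib, Nampt being the addition, and changed no other call of the NAD genes. The block together with leaving out MNA replicate 2 gave 3 NAD genes up with olaparib, 2 up and 3 down with MNA and 3 up between the treatments. Nadk was still called down with olaparib, and Nnt still lower with olaparib than with MNA. Over all genes that fit gave 3154 up and 2962 down, 3618 up and 3547 down, and 2952 up and 2790 down. Same-numbered MNA and DMSO libraries did not all deviate together, and in every comparison the pairing is by number only. Near-zero differences that changed sign were those of Nadsyn1 (-0.0851 to 0.0668 with a library left out, 0.0125 with upper quartile scaling and 0.0108 where genes needed a mean of 50 counts) and Naprt (-0.0934 to 0.138) with olaparib, Nampt (-0.0202 to 0.0959) and Cd38 (-0.276 to 0.358) with MNA, and Nmnat1 (-0.0870 to 0.00845) and Nmrk1 (-0.159 to 0.0238) between the treatments. The cause was not tested. Cd38 and Bst1 rest on few counts, and Aox1 was too low to test at this depth.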
